A study of Homo sapiens with 5 samples.

Results

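The introns described here were spliced with more than 1 partner end in undepleted cells. In each of 3 deposited tables, an intron was a member when the table marked it clean (its name marks no overlap with another annotated feature), when at least 20 control reads were spliced at its busier end, and when at most 80% of those reads joined the 2 ends of exactly that intron. That percentage is called the exact share below. It is the deposited number of reads spliced exactly across the intron, divided by the deposited number spliced at whichever of its ends had more, so a low exact share means that 1 end was often joined elsewhere. The rule gave 146 members of 14969 clean introns with enough control reads in the WBP11 RNAi table, 191 of 22004 in the SNW1 RNAi table and 189 of 19719 in the WBP11 auxin table. Members made up 0.975%, 0.868% and 0.958% of those introns. Together they were 419 introns in 406 genes, out of 34560 introns listed in any table.

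The libraries were polyA RNA of DLD-1, a human colorectal adenocarcinoma line, with 5 libraries and 1 per group. DLD-1 LacZeo cells were given siRNA against WBP11 or against SNW1 at 100 nM for 72 h, and both were compared with a single DLD-1 LacZeo library whose treatment is labelled none, although the file headers call it an RNAi control. The other pair received 500 uM auxin for 48 h. Both of its libraries carry the genotype label DLD-1 LacZeo osTIR1, the plant receptor that auxin needs to mark a tagged protein for degradation, and the series' design text alone says that the depleted line was a WBP11 knockout with a degron-tagged WBP11 transgene. Each group being a single library, differences were not checked against replicates and carry no p-value. The 95% intervals cover counting error only, since reads are not independent molecules.

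A spliceosome cuts an intron at its donor, the end next to the upstream exon, and at its acceptor, the end next to the downstream exon. When 1 donor can be joined to several acceptors, or 1 acceptor to several donors, the cell makes several messages from a gene: an exon is included or skipped, or its edge moves by a few bases. WBP11 is a splicing factor that associates with the spliceosome and binds protein phosphatase 1, and SNW1, also called SKIP, is a component of the activated spliceosome.

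Some members had an annotated alternative end only a few bases away, and the letters between both ends show how small the difference between the messages is. In GENCODE release 29, 20 member introns had another intron with the same lower genome coordinate and a higher coordinate at most 12 bases beyond. Only introns whose junction sequence was read are counted, and not every chromosome was read. On the plus strand the moving end is the acceptor and on the minus strand the donor: 14 were acceptors and 6 were donors. The bases between the ends closed with AG, the last letters of nearly all introns, at all 14 acceptors, and opened with GT, the first letters of nearly all introns, at 5 of the 6 donors. The following acceptor junctions, read from GENCODE transcripts of GRCh38 (hg38), show 9 exon bases in lower case, then in capitals the bases that stay in the message when the member intron is removed only up to its nearer end, then further exon bases. DAZAP1, SAFB and SRRT encode RNA-binding or RNA-processing proteins and MRPS11 a mitochondrial ribosomal protein.
DAZAP1, acceptor, intron chr19:1432691-1434736, plus strand: gtcagtatgCAGgttacgggcaggacttga
MRPS11, acceptor, intron chr15:88467783-88467907, plus strand: gacagccggCAGggtcgtggccagaacgcc
SAFB, acceptor, intron chr19:5667165-5667346, plus strand: tccccccagGGGCAGacgtgactgggggga
SRRT, acceptor, intron chr7:100887860-100888041, plus strand: ccgcccagaTACTCCCCCCAGgtttgaccc
Capitals of 3 bases at DAZAP1 and MRPS11, 6 at SAFB and 12 at SRRT are multiples of 3, so the choice of end does not shift the reading frame by its length. DAZAP1 is shown because it was among the most deeply read: 838 of 1114 reads were exact in the auxin control (75.2%) and 648 of 776 in the WBP11 auxin library (83.5%). That DAZAP1 intron also spans an annotated exon of 89 bases, not a multiple of 3. At the introns printed above, the deposited counts do not name the end to which the remaining reads were spliced. Their exact shares are therefore no measure of the choice between the ends shown. At SAFB 155 of 196 control reads were exact (79.1%), 261 of 400 after WBP11 RNAi (65.2%) and 184 of 276 after SNW1 RNAi (66.7%). The SAFB share was thus lower in both RNAi libraries, by 13.8 points (95% interval -20.8 to -6.15) and 12.4 points (-20.1 to -4.24). SRRT had 543 exact of 704 reads (77.1%) in the auxin control and 838 of 1082 (77.4%) in the WBP11 auxin library, a difference of 0.318 points whose interval runs from -3.60 to 4.35.

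In some members the intron spans a whole annotated exon, so that its exact reads skip that exon. Of the members, 102 were of this kind. They include the DAZAP1, CBLL1 and HDAC7 introns, which also had an annotated alternative end at most 12 bases beyond. Some of the 102 introns span several annotated exons, and only the exon at the lowest coordinate was taken from each. The exons taken were 12 to 387 bases long with a median of 98, 46 of the 102 had a length that is a multiple of 3, and 39 lay wholly in a coding sequence. In the next lines 9 bases of the exon before are in lower case and up to the first 21 bases of the exon inside are in capitals, from the same source. RAC1 is a small GTPase of the cytoskeleton, and inclusion of the exon shown makes RAC1b, a form known from colorectal tumours. INCENP anchors the chromosomal passenger complex, KIF23 is a kinesin of the central spindle, and NCOR1 is a transcriptional corepressor.
RAC1, exon inside chr7:6398662-6398718, plus strand: ccgcaaacaGTTGGAGAAACGTACGGTAAG
INCENP, exon inside chr11:62141500-62141511, plus strand: gaccccaagTGCAGCTTCGTCgagaaggag
KIF23, exon inside chr15:69425282-69425323, plus strand: aaaacccaaGTGGAACAGTTGCAGCACACC
NCOR1, exon inside chr17:16151590-16151616, minus strand: catcaagacTGGAGTACCTGCAAGGCGCAT
The exons of RAC1, INCENP, KIF23 and NCOR1 are 57, 12, 42 and 27 bases long, all multiples of 3.

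Summed over both controls, RAC1 had the most spliced reads of the 7 introns that were members in all 3 tables. Its intron 3, chr7:6392042-6400125 on the plus strand and 8084 bases long, lies in the coding region. Exact reads were 889 of 1122 in the RNAi control (79.2%), 991 of 1055 after WBP11 RNAi (93.9%), 898 of 1064 after SNW1 RNAi (84.4%), 684 of 890 in the auxin control (76.9%) and 1061 of 1078 in the WBP11 auxin library (98.4%). All 3 depleted libraries stood above their control, by 14.7 points after WBP11 RNAi (11.9 to 17.5), 5.16 after SNW1 RNAi (1.93 to 8.38) and 21.6 in the auxin pair (18.8 to 24.5). The rule chose the intron on a low share in both controls, and the intervals do not account for that choice. Here and at the other introns shared by all tables, both RNAi differences use the same control library. In the auxin control the intron carried a warning for uneven intron coverage, which by the listing described below leaves it hardly any room for a depleted share under 75%. Retention of that intron stayed between 0.458% and 1.31% in every library. The remaining reads at RAC1 were spliced to another end, and the tables do not say to which.

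N4BP2L2 showed the opposite order. At its intron 2, chr13:32522271-32527407 on the minus strand, 230 of 302 control reads were exact (76.2%), 100 of 200 after WBP11 RNAi (50%) and 166 of 250 after SNW1 RNAi (66.4%). In the auxin pair the counts were 87 of 109 (79.8%) and 31 of 69 (44.9%). Each depleted library was lower than its control, by 26.2, 9.76 and 34.9 points. The neighbouring intron 1, a member in the RNAi tables, had 162 of 212 exact in control (76.4%) and 61 of 143 after WBP11 RNAi (42.7%).

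The other introns shared by all tables varied more. PABPC4, which encodes a cytoplasmic poly(A)-binding protein, was higher in value in all depleted libraries at its intron 10: 75.6% in control, 81.9% after WBP11 RNAi and 90.0% after SNW1 RNAi, and 64.4% against 84.6% in the auxin pair. PLXNB1, a semaphorin receptor, had 76.0% in control at intron 8, 73.2% after WBP11 RNAi and 51.7% after SNW1 RNAi, and 75.4% against 50% in the auxin pair. The PLXNB1 interval includes 0 after WBP11 RNAi (-20.0 to 12.7). NADK (NAD kinase) and TTC8, a subunit of the BBSome of cilia, had intervals that include 0 in all tables. The zinc finger gene ZNF761 had such intervals after SNW1 RNAi and in the auxin pair, but not after WBP11 RNAi.

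**Figure D1:**
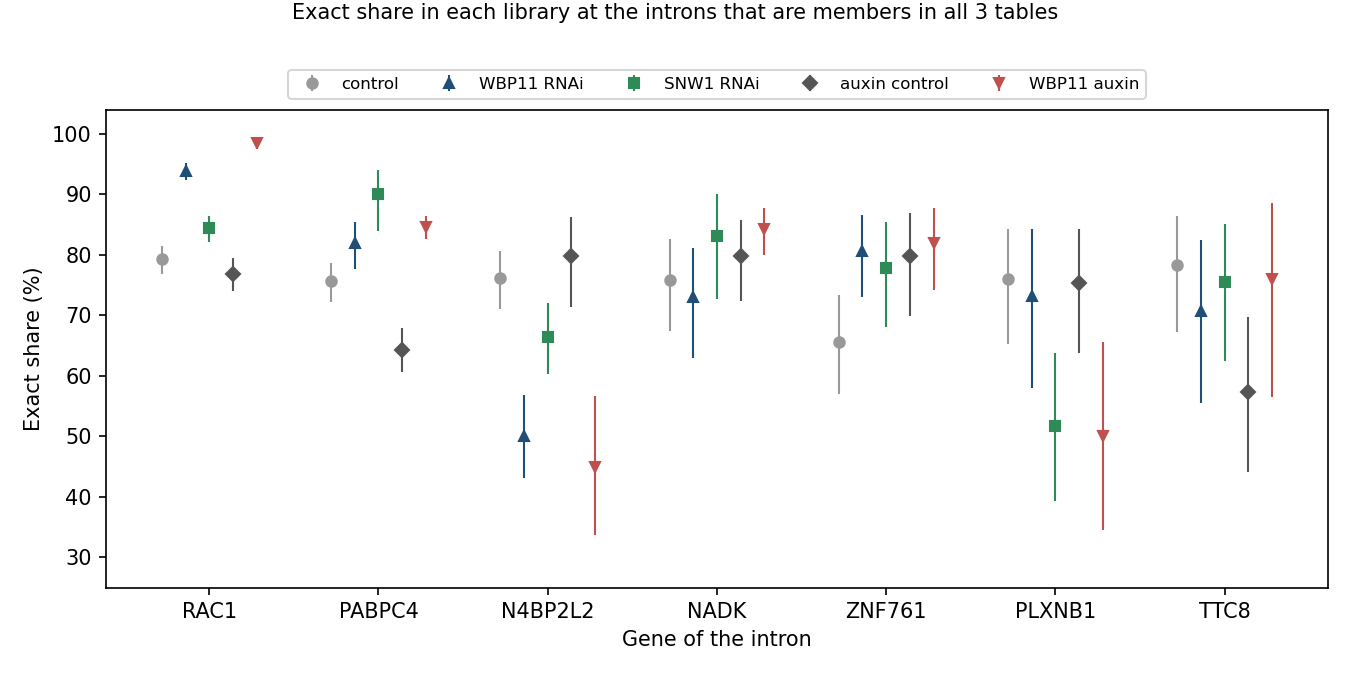
Exact share (%, vertical axis) in the 5 libraries at the 7 introns that were members in all 3 tables, with Wilson 95% intervals for counting error; 1 point is 1 library. RAC1 is above its control in every depleted library, from 79.2% to 93.9% and 84.4% and from 76.9% to 98.4%, and N4BP2L2 is below it, from 76.2% to 50% and 66.4% and from 79.8% to 44.9%.

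How the tables were filled bears on every change of the exact share. No listed intron carried an IRFinder warning in both of its libraries. A minor isoform warning, which IRFinder sets where another splice form is common, stood on 59 of 59, 72 of 73 and 61 of 61 members with a control share of 75% or less, in the order WBP11 RNAi, SNW1 RNAi and WBP11 auxin that is kept below. Counting every kind of warning, which also covers uneven intron coverage and low counts, 80, 99 and 88 members had a warning in control. Every one of them had no warning in the depleted library, where the lowest exact share among those assessed was 75.2%, 75.3% and 75.2%. An intron with a low share in both libraries could therefore hardly enter a table, and a member with any control warning could hardly have a depleted share under 75%. The remaining 66, 92 and 101 members had no control warning and were free of that limit, but their control shares all lay between 75.2% and 80%.

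Both libraries had at least 20 spliced reads at 133, 164 and 180 members, which are the ones assessed, and 13, 27 and 9 members were not assessed. The exact share was at least 10 points higher at 72, 78 and 67 assessed members and at least 10 points lower at 18, 26 and 26. Over all assessed introns 0.977%, 0.644% and 0.573% were higher and 2.6%, 2.76% and 5.14% were lower. The rule chose members on the control value of this contrast, so nothing is read from the member counts against these percentages. Of the 72, 85 and 83 assessed members with any control warning, 59, 61 and 53 were at least 10 points higher and none was as much lower, with medians of 16.8, 13.97 and 12.5 points. Members without a control warning were split: 13, 17 and 14 of 61, 79 and 97 were higher and 18, 26 and 26 were lower, with medians of -0.906, -0.411 and -2.19 points. Over all assessed introns without a control warning, 0.489%, 0.299% and 0.293% were higher and 2.92%, 2.92% and 5.81% lower, and nothing is read from these either. The excess of higher over lower counts was thus found among members with a control warning, and without one the lower count was the larger in each table.

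**Figure D2:**
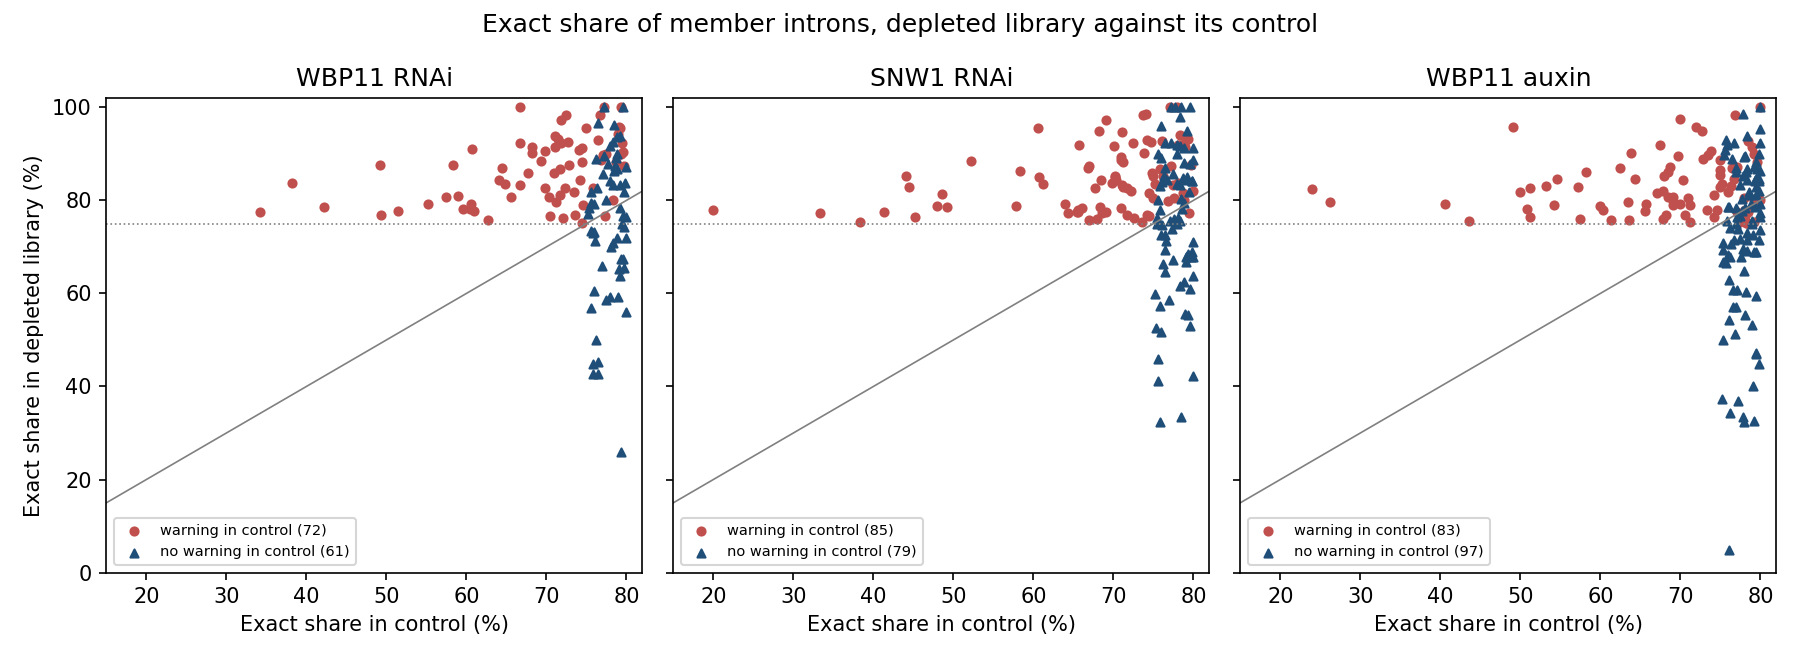
Exact share in the depleted library (%, vertical axis) against its control (%, horizontal axis) for the assessed members of each table; circles had a warning of any kind in control, triangles had none, the solid line marks equality and the dotted line 75%. Every circle lies above 75%, while the triangles lie on both sides of it, down to 4.76% in the WBP11 auxin table.

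The threshold itself separated like introns. Just inside it were TUBG2 (48 of 60 control reads exact), PPIP5K2 (36 of 45) and, in the auxin control, SLC8B1 (76 of 95), each at 80%. Just outside were MIX23 and NAA40 at 80.4% and C11orf80 at 80.5% of RNAi control reads, and MFN2 and DMTF1 at 80.2% of auxin control reads. Among introns without a control warning and with a control share over 80% and up to 85%, 22.2%, 9.71% and 9.63% were at least 10 points higher and 25.9%, 23.3% and 35.6% lower, of 81, 103 and 135.

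Members chosen on 1 control were also read in libraries that had no part in the choice. Of the 189 auxin members, 59 were listed and 49 assessed in the WBP11 RNAi table, where their median control share was 86.9% against 77.0% in the auxin control that chose them, and 44 of the 49 were higher in the RNAi control. Against the RNAi control, 6 of the 49 (12.2%) were at least 10 points higher after WBP11 RNAi and 12 (24.5%) lower, beside 0.977% and 2.6% of all assessed introns, with a median of -3.35 points. The 73 auxin members assessed in the SNW1 RNAi table had a median control share of 87.1%, with 11 higher (15.1%, beside 0.644%), 15 lower (20.5%, beside 2.76%) and a median of -1.61 points. Read in the auxin table, 39 WBP11 RNAi members gave 4 higher (10.3%), 5 lower (12.8%) and a median of -0.989 points. The 50 SNW1 RNAi members gave 8 higher (16%), 10 lower (20%) and a median of -1.35 points, and over all introns assessed in the auxin pair 0.573% were higher and 5.14% lower. Changes of 10 points were thus more frequent in value among these members than among all introns, in both directions. For higher shares that comparison is limited, because a control share over 0.9 leaves no room for a rise of 10 points. The 136, 132 and 109 higher introns all lay among the 498, 636 and 716 assessed introns with a control share up to 0.9. The excess of higher values over lower ones, seen against the control that chose the members, was not present where members were read against the other control. The part that choosing on a low value and the listing described above had in that excess was not tested. Between the controls themselves, 10 introns were members of both the WBP11 RNAi and the auxin table, 6.85% of the former and 5.29% of the latter. For SNW1 RNAi and auxin the overlap was 15, 7.85% and 7.94%. Most members could not overlap, since 47 of 146 WBP11 RNAi members and 59 of 191 SNW1 RNAi members were listed in the auxin table at all, and 59 and 81 of 189 auxin members in the RNAi tables.

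The same threshold was applied to the depleted libraries, since an intron with a warning in either library alone was listed. With at least 20 reads in both libraries, 248, 373 and 633 introns had an exact share of at most 80% in the depleted library, against 133, 164 and 180 in control. Those at or under the threshold in the depleted library alone numbered 194, 300 and 536, and in control alone 79, 91 and 83. The depleted library kept the larger number at a minimum of 50 reads (125, 193 and 367 against 73, 94 and 97) and of 100 reads (54, 75 and 156 against 33, 39 and 44). Median spliced reads per assessed intron were 106, 104 and 125 in the depleted libraries and 116, 128 and 104 in the controls, so that the auxin pair differed in depth the other way from the RNAi pairs. Introns under the threshold in the depleted library alone were shorter, with median lengths of 721, 795.5 and 701.5 bases against 2188, 2039 and 1577 for those of control alone. They also had no other annotated intron at either end in 29.4%, 26.0% and 42.9% of cases, against 15.2%, 13.2% and 24.1%.

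**Figure D3:**
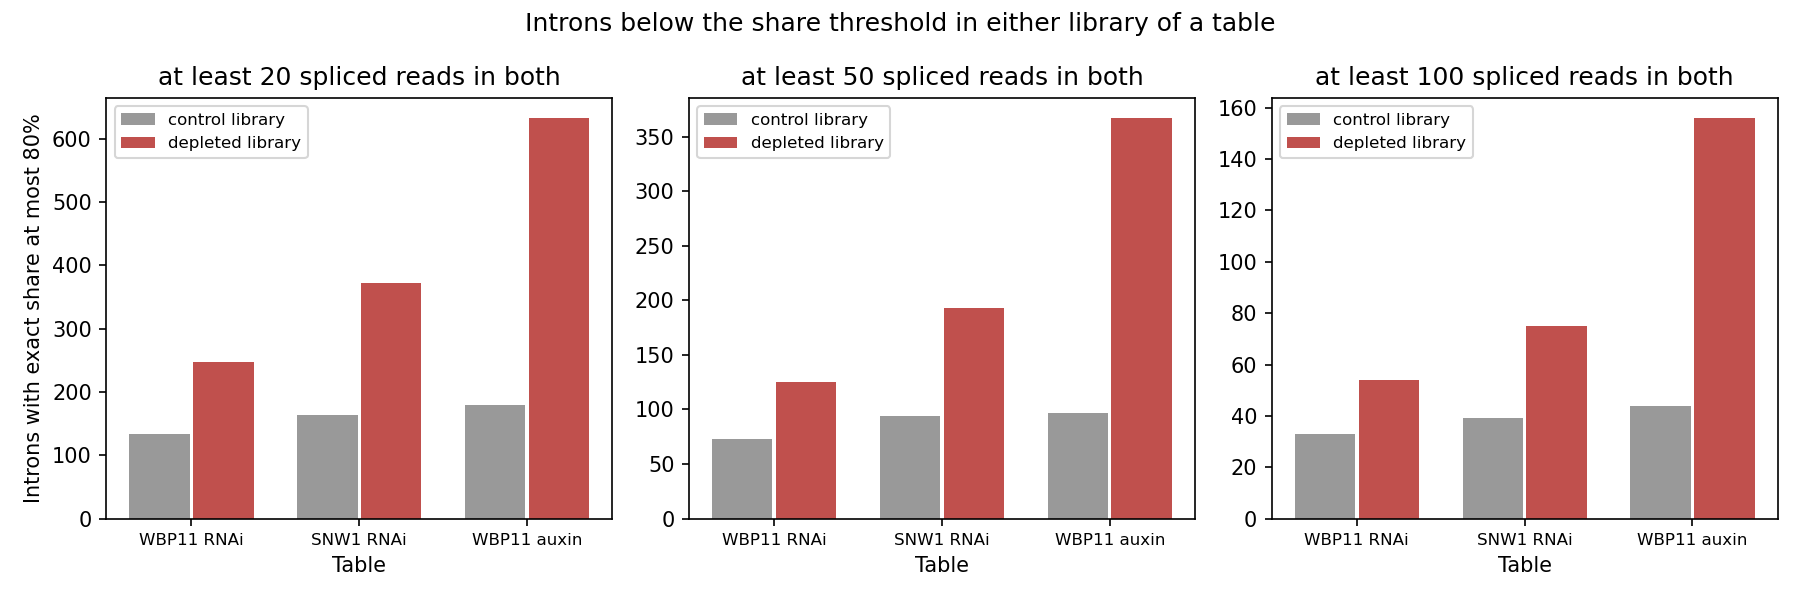
Number of introns with an exact share of at most 80% (vertical axis) in the control and in the depleted library of each table, at 3 minimum numbers of spliced reads in both libraries. The depleted bar is the taller in every pair, for instance 248 against 133, 373 against 164 and 633 against 180 at 20 reads.

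Annotation set the members apart from other introns in a lopsided way. Another annotated intron shared the lower genome coordinate and differed only at the higher one for 67, 94 and 88 members (45.9%, 49.2% and 46.6%), against 11.8%, 11.6% and 10.9% of the other clean introns with enough control reads. The reverse, another intron that differed only at the lower coordinate, was found for 2, 4 and 3 members (1.37%, 2.09% and 1.59%), against 11.9%, 11.6% and 11.0% of the others. Both ends had alternatives for 55, 66 and 59 members and neither for 22, 27 and 39. The pattern followed genome coordinate and not the direction of transcription: it was present on both strands, although the higher coordinate is the acceptor on the plus strand and the donor on the minus strand.

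The deposited counts showed the same lopsidedness over all introns. Clean introns with an annotated alternative at the lower coordinate alone had a median control share of 100%, and 9 in 10 of them lay above 98.2%, 98.3% and 97.6%, close to introns with no alternative (98.0%, 98.4% and 97.6%). Introns with an alternative at the higher coordinate alone had the same lower limit at 88.1%, 88.5% and 87.0%. The exact share as deposited thus hardly registered alternatives at the lower coordinate, and the members are in the main introns with a common lower end and a choice of higher ends. Why the deposited counts differ between the ends was not tested.

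**Figure D4:**
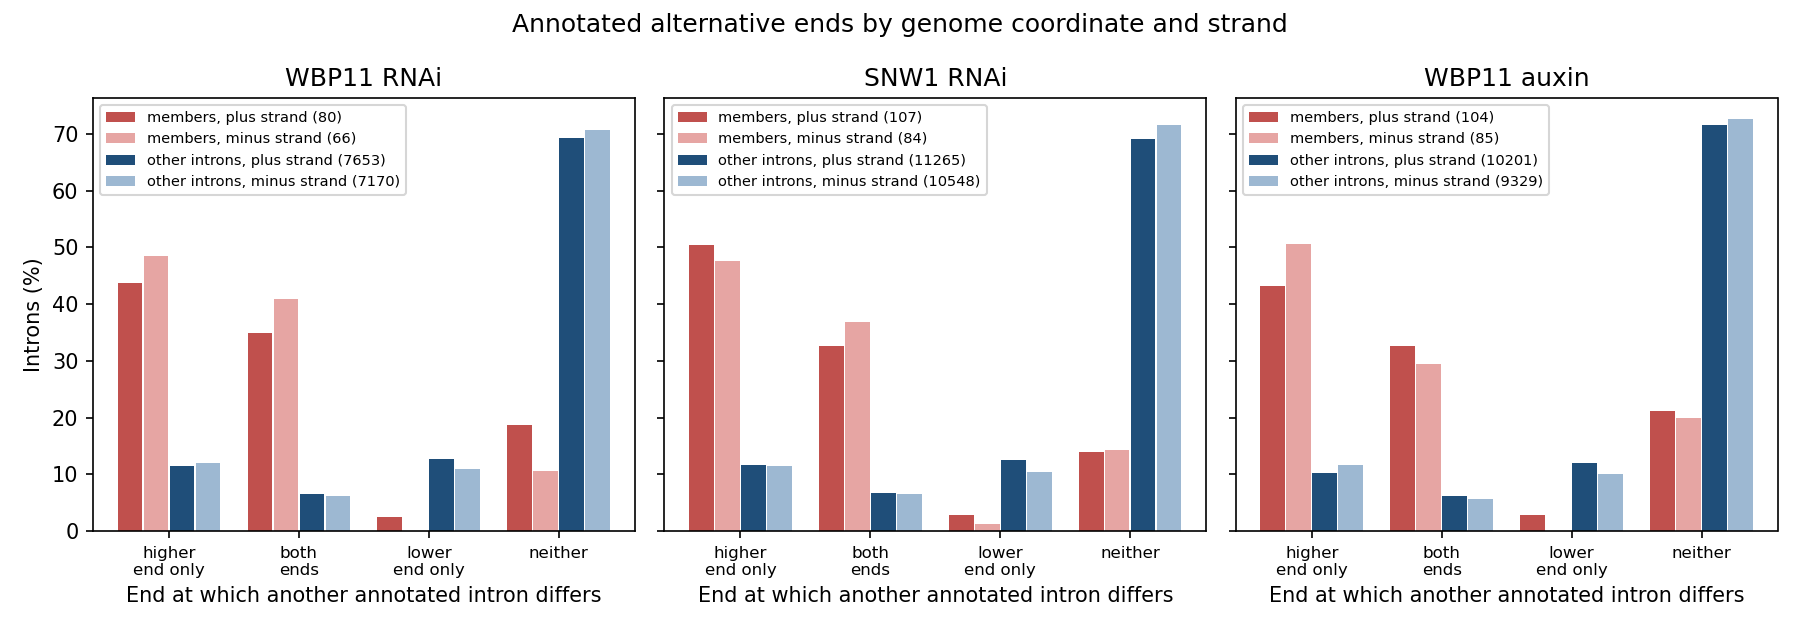
Percentage of introns (vertical axis) by the end at which another annotated intron differs, for members and other clean introns on each strand, with the number of introns in the legend. On both strands members stand highest at the higher-coordinate end, 45.9%, 49.2% and 46.6% over both strands, and lowest at the lower-coordinate end alone, at most 2.09%.

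Members were also longer than other introns and more often the first of their transcript. Their median length was 1937.5, 1728 and 1268 bases, against 423, 495 and 517. First introns made up 14.4%, 19.4% and 11.1% of members, against 4.34%, 5.38% and 4.11%, and introns in a 5' UTR 8.22%, 13.6% and 5.29%, against 2.19%, 2.63% and 2.0%. The coding region held 89.7%, 85.3% and 91.0% of members. A whole annotated exon lay inside 28.8%, 23.0% and 19.6% of members (42, 44 and 37), against 3.21%, 3.51% and 3.31% of the others. Another 46, 71 and 80 members (31.5%, 37.2% and 42.3%, against 10.8%, 10.8% and 9.75%) had an annotated longer form that skips the exon at the higher end.

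Directions were counted by these kinds among the members without a control warning. Where an exon lay inside, so that exact reads skip it, 5, 5 and 2 of 10, 14 and 19 were at least 10 points higher and 1, 3 and 4 lower. Where the longer annotated form skips the exon at the higher-coordinate end, so that exact reads include it, 4, 6 and 5 of 30, 37 and 44 were higher and 12, 15 and 16 lower. Over non-members of the second kind, 10.0%, 9.99% and 15.6% were lower by as much and 0.735%, 0.642% and 0.435% higher, and over non-members with an exon inside 4.37%, 6.83% and 12.6% were lower and 3.28%, 1.64% and 0.946% higher. Skipping itself cannot be counted from these tables, since they do not name the other end of the remaining reads. For members whose other annotated end lay within 100 bases, 1, 2 and 2 of 8, 11 and 7 were higher and 3, 4 and 2 lower, and over such non-members 1.32%, 0.481% and 0.829% were higher and 3.31%, 3.61% and 5.25% lower. All these counts use the control value that chose the members and are a description.

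The largest falls in value were at members that had no control warning. After WBP11 RNAi TEP1 intron 31, in a gene for a telomerase-associated protein, had 23 of 29 exact reads in control (79.3%) and 7 of 27 in the depleted library (25.9%), a difference of -53.4 points (-70.1 to -27.6). The depleted TEP1 value carried a low coverage warning. KMT5C intron 2, in a gene for a histone H4 lysine 20 methyltransferase, had 50 of 66 in control (75.8%), 23 of 54 after WBP11 RNAi (42.6%) and 21 of 65 after SNW1 RNAi (32.3%). MBD1 intron 12, in a gene for a methyl-CpG-binding protein, had 125 of 165 (75.8%) in control and 87 of 194 (44.8%) after WBP11 RNAi. All of these, like CBLC intron 4 (76.4% and 45.3% after WBP11 RNAi), had an annotated longer intron that skips the exon at the higher-coordinate end. That exon is the downstream one at KMT5C and CBLC, on the plus strand, and the upstream one at TEP1 and MBD1, on the minus strand.

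SNW1 RNAi gave its lowest value relative to control at KIF18A, a kinesin that aligns chromosomes at metaphase. Its intron 5, chr11:28088722-28090616 on the minus strand, had 40 of 51 exact in control (78.4%) and 13 of 39 in the depleted library (33.3%), a difference of -45.1 points (-60.7 to -24.7), with no alternative annotated at either end. MYSM1 intron 14, in a gene for a histone H2A deubiquitinase, had 34 of 45 (75.6%) and 28 of 68 (41.2%). MON1A, ZSCAN32 and ZNF215 differed by -37.7, -29.6 and -26.6 points.

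In the auxin pair MAP4K2 intron 9, 73 bases long at chr11:64800827-64800899 in a gene for a protein kinase, had 35 of 46 exact in control and 1 of 21 in the depleted library, 76.1% and 4.76%. Its retention ratio was 22.3% and 56.9%, and the depleted value carried a low splicing warning. TARBP2 intron 6, in a gene for a partner of Dicer, had 99 of 125 (79.2%) and 49 of 150 (32.7%). FANCL intron 10, in a gene for the ubiquitin ligase of the Fanconi anemia pathway, had 81 of 104 (77.9%) and 11 of 34 (32.4%), with a retention ratio of 31.0% and 59.1%. AACS, POLL and QPCTL differed by -41.9, -44.4 and -40.3 points. At TARBP2 and AACS the retention ratio differed by 4.68 and 0.393 points.

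The largest differences upward stood at members with a minor isoform warning in control, whose direction the listing fixes. NF2 intron 15, in the gene for the tumour suppressor merlin, had 23 of 96 exact in the auxin control (24.0%) and 174 of 211 in the WBP11 auxin library (82.5%). It spans an annotated 45-base exon. GABPB1 intron 5, in a gene for a subunit of the GABP transcription factor, had 14 of 70 in control (20%) and 127 of 163 after SNW1 RNAi (77.9%). KIF23 intron 7, which spans the exon printed above, had 68 of 112 (60.7%) and 213 of 234 after WBP11 RNAi (91.0%). INCENP intron 10 had 69 of 93 (74.2%), 152 of 180 after WBP11 RNAi (84.4%) and 107 of 115 after SNW1 RNAi (93.0%). Differences of 45.4, 43.2, 38.3, 36.3 and 33.3 points stood at ZNF142, TOP3B, CPT1B, THNSL2 and SLC25A29 after WBP11 RNAi. After SNW1 RNAi SLC4A3, NAPB, LARGE2, TRPM2 and TCF12 had 43.9, 41.2, 38.5, 37.0 and 36.3, and in the auxin pair ARHGEF11, EXOC7, MORC4, TEAD1 and FAM13A had 53.4, 46.7, 38.6, 32.0 and 31.8.

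Higher shares at members without any control warning, picked after their values were seen, included introns at which every depleted read was exact. PLEKHG6 intron 9 had 80 of 103 in control (77.7%) and 42 of 42 after SNW1 RNAi. RNF213 intron 43, in a gene for a large ubiquitin ligase, had 39 of 49 in control (79.6%), 26 of 26 after WBP11 RNAi and 29 of 29 after SNW1 RNAi. FASTKD1 intron 2, in a gene for a mitochondrial RNA-binding protein, had 27 of 35 in control (77.1%), 22 of 22 after WBP11 RNAi and 24 of 24 after SNW1 RNAi. A more deeply read case was PSMD6 intron 1, in a gene for a subunit of the proteasome's regulatory particle, with 451 of 590 in control (76.4%) and 759 of 786 after WBP11 RNAi (96.6%). In the auxin pair TP73 intron 4, in the gene for the p53 relative p73, had 28 of 36 (77.8%) and 66 of 67 (98.5%), and PIDD1 intron 13, in a gene for a p53-induced death domain protein, 94 of 124 (75.8%) and 195 of 212 (92.0%).

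Retention, which the rule did not use except through the spliced reads in its denominator, is the deposited IRFinder ratio of intron depth to that depth plus spliced reads. Members began from a higher level, with control medians of 3.80%, 2.49% and 4.24% against 2.06%, 1.16% and 1.93% for the other clean introns. The ratio was at least 10 points higher at 4, 24 and 20 assessed members, 3.01%, 14.6% and 11.1% of them, beside 6.45%, 13.1% and 11.8% of all assessed introns. After SNW1 RNAi and in the auxin pair the member percentages were thus near the background, and after WBP11 RNAi they were lower in value, on 4 introns. It was at least 10 points lower at 4, 2 and 8 members, 3.01%, 1.22% and 4.44%, beside 0.984%, 0.21% and 0.715%. Those lower counts are small, and the interval lay below 0 for 1, 1 and 4 of them. Median changes were -0.956, 2.09 and 0.581 points at members and 0.689, 2.36 and 1.37 at non-members. Members had fewer control spliced reads, with medians of 67, 72 and 61 against 108, 119 and 101, and the part of that difference in depth in these counts was not tested.

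The members were also counted by both changes at once, where over all assessed introns 6.45%, 13.1% and 11.8% had a higher retention ratio and 0.984%, 0.21% and 0.715% a lower one. Of the 72, 78 and 67 with a higher share, 0, 10 and 5 had a higher retention ratio and 4, 2 and 4 a lower one. Of the 18, 26 and 26 with a lower share, 3, 4 and 8 had a higher ratio and 0, 0 and 1 a lower one. Counts of this size leave the relation a description.

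**Figure D5:**
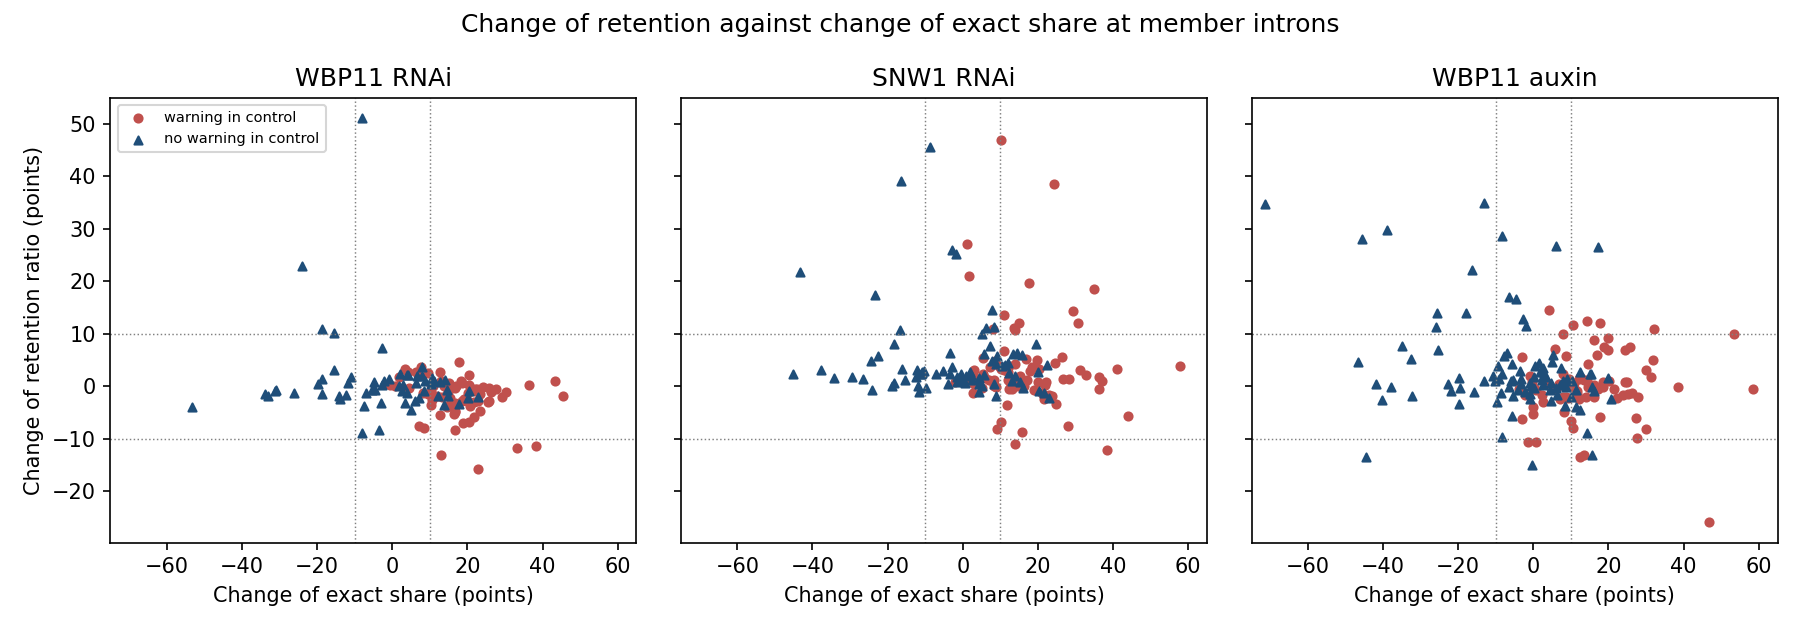
Change of the retention ratio (points, vertical axis) against change of the exact share (points, horizontal axis), depleted minus control, for the assessed members of each table; circles had a warning in control and dotted lines mark 10 points either way. Most points lie within 10 points of retention change: 125 of 133, 138 of 164 and 152 of 180.

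ABCC3, a multidrug resistance transporter, and TUBG2, a gamma-tubulin, had large retention differences in both RNAi libraries. At ABCC3 intron 14, chr17:50668518-50668852, the ratio was 14.5% in control, 65.6% after WBP11 RNAi and 60.0% after SNW1 RNAi. Exact shares there were 79.9%, 71.9% and 71.1%, with 264, 32 and 45 spliced reads. At TUBG2 intron 4, chr17:42660708-42662972, the ratios were 29.1%, 51.9% and 68.1% and the exact shares 80%, 56.0% and 63.6%, with 60, 25 and 22 spliced reads. Both introns thus had fewer spliced reads in the RNAi libraries and exact shares that were lower in value. The share interval includes 0 at ABCC3 after either RNAi and at TUBG2 after SNW1 RNAi (-38.6 to 4.02).

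Further retention differences after WBP11 RNAi were 10.9 points at FBXL6 and 10.2 at POLE, the catalytic subunit of DNA polymerase epsilon, and 7.18 at PLXNB1. After SNW1 RNAi E4F1 intron 8 went from 23.3% to 70.2%, LDB1 intron 10 from 42.1% to 80.6% and TMEM94 intron 18 from 7.14% to 34.1% in value. In the auxin pair WDR13 intron 2 had 22.6% and 57.6%, SLC29A2 intron 5, in a nucleoside transporter gene, 37.6% and 67.4%, and PAQR6 intron 7 10.1% and 38.7%. Lower ratios were found at EXOC7, an exocyst subunit, with 41.1% and 15.2% at intron 7 in the auxin pair, and at NAA40 (25.8% and 10.8%) and MST1R (31.5% and 18.0%). After WBP11 RNAi SNAPC4 had 30.2% and 14.5%, SIPA1L1 14.9% and 1.81%, and SLC25A29 13.8% and 2.01%. After SNW1 RNAi LARGE2 had 30.4% and 18.2%, ING5 13.8% and 2.74%, and IFT88 13.4% and 4.60%. Of the differences in this paragraph, the interval includes 0 at FBXL6, POLE, PLXNB1, MST1R, SNAPC4, SLC25A29, LARGE2 and IFT88. A warning for uneven intron coverage stood in control at TMEM94, SNAPC4, SIPA1L1, ING5 and IFT88, and in the depleted library at NAA40.

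Members were counted in gene lists of the splicing machinery, cell division and repair, where over all assessed introns 0.955%, 0.8% and 0.947% were members. No member lay in a gene for an SR protein or CLK kinase, among 35, 45 and 30 assessed introns of those genes. Of hnRNP and other splicing regulator introns, 0 of 60, 0 of 105 and 1 of 80 were members, the last in PTBP2, the neuronal homologue of PTB, with 19 of 28 and 41 of 50 exact reads in the auxin pair. The core spliceosome list had 1 member of 79 assessed introns, then 0 of 156 and 0 of 88. That member, PRPF38B intron 1, had 106 of 134 exact reads in control (79.1%) and 289 of 302 after WBP11 RNAi (95.7%). Centrosome, spindle and cohesion genes had 1 member each in 170, 204 and 248 introns: TUBG2 in both RNAi tables and, in the auxin pair, SGO1, the protector of centromeric cohesion, with 67 of 97 and 314 of 389 exact reads (69.1% and 80.7%). Replication and repair genes had 2 assessed members in each table, of 166, 212 and 240 introns. They were POLE and the helicase gene BLM, with -15.4 and 12.7 points, after WBP11 RNAi. RFC5, a clamp loader subunit, and POLE had 11.1 and -3.50 points after SNW1 RNAi, and FANCL and FANCE -45.5 and 0.522 points in the auxin pair. RNA decay and export had 0 of 88, 1 of 123 and 0 of 107, the 1 being UPF3B of nonsense-mediated decay with 75.2% and 83.5% after SNW1 RNAi. PTBP2, PRPF38B, SGO1, RFC5 and UPF3B carried a control warning, so the listing limits their depleted shares as described above. Member percentages of these lists thus ran from 0 to 1.27%, on at most 2 members, and members over all assessed introns were 133 of 13923, 164 of 20502 and 180 of 19009.

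The spliced reads of the listed introns summed to 2987572 in the WBP11 RNAi library and 3146434 in its control, 4170988 and 5527186 in the SNW1 RNAi table, and 4927556 and 4276828 in the auxin table. These sums cover listed introns and not whole libraries. The targeted gene had 20 against 312 spliced reads at the 2 listed WBP11 introns after WBP11 RNAi, and 31 against 401 at the 2 listed SNW1 introns after SNW1 RNAi. In the auxin pair the target is the protein, so the WBP11 reads (103 against 235 at 1 intron) check nothing. Of 14 epithelial colon genes, 5, 6 and 6 had a listed intron, of 9 fibroblast genes none did, and of 9 leukocyte genes 1, 1 and 0 did, with at most 39 reads. The tables list introns and not genes, so a gene without a listed intron may still be expressed.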

How the data were processed

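Spliced and intronic reads of 5 DLD-1 libraries, grouped by the genotype, treatment and title labels, were set against each other in 3 tables, each of a depleted and a control library. The authors ran IRFinder on STAR genome alignments, per the file headers. RSEM, bedtools and the build hg38 come from the submitters' processing notes; the sources used here do not give versions. The retention ratio is deposited as a fraction, the intron depth is a coverage signal per the file headers, and the reads spliced at the busier end and exactly across the intron are deposited as a count each. None was scaled between libraries. The control of both RNAi tables had identical counts at all 13412 introns listed in both, and was treated as 1 library shared by them.

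From these were computed the exact share, its difference (depleted minus control) and the difference of the retention ratio, with python 3.11.15, pandas 2.3.3, numpy 2.4.6 and scipy 1.17.1. Introns were assessed with at least 20 spliced reads in both libraries and called at a difference of at least 10 points. Intervals are Wilson (shares) and Newcombe (differences), at 95%. Simulated data held planted falls of the exact share only, called at 10 points where the interval also excluded no change. Rises and the retention ratio were not simulated, and most counts given here do not require such an interval. All introns matched GENCODE release 29 by coordinates, which gave intron numbers, alternative ends and the printed transcript sequences. Positions count from 1.

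The members, gene lists and tests were chosen with earlier results of these data known. Named introns are, per table, the 6 largest differences of the share each way, the 5 largest rises and 3 largest falls of retention, the lowest control share, the introns nearest the threshold, up to 2 per gene list, and those in all 3 tables; some of them are not reported here. Members shown with a sequence, and rises without a control warning, were added after the values were seen. Alternatives were other thresholds, depth minimums, sizes of change and warnings, and 1 intron per gene. The first and last bases inside the introns were not analysed here, since no hg38 genome was used.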

Additional observations from a re-analysis of the deposited data

Results flagged for a closer look

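Of the introns that were members of both an RNAi table and the auxin table, 2 differed in exact share by at least 10 points in opposite directions in those tables, which have different controls. POLL intron 5, chr10:101583682-101584601, in a gene for DNA polymerase lambda, was 13.9 points higher after SNW1 RNAi. In the auxin pair it differed by -44.4 points, with 21 of 27 exact reads in control and 10 of 30 in the depleted library. At POLL the RNAi control carried a warning for uneven intron coverage, and the auxin control carried none. By the listing described above, that warning left hardly any room for a fall of 10 points after SNW1 RNAi. CAMSAP2, chr1:200844870-200847209, in a gene for a protein that binds microtubule minus ends, differed by -10.9 points after SNW1 RNAi and by 10.8 points in the auxin pair. The difference between the tables was not tested, and with 1 library per group it cannot be set against a spread between replicates.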

How the results depend on the processing

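Of 144 alternative values, 56 stayed within 1.5 times the reported count and 88 did not. Counts below are in the order WBP11 RNAi, SNW1 RNAi, WBP11 auxin, first for a higher and a lower exact share, then for a higher and a lower retention ratio, where the reported counts were 72, 78, 67 and 18, 26, 26, then 4, 24, 20 and 4, 2, 8. A share threshold of 0.7 gave 29, 31, 37 and 0, 0, 0, then 0, 7, 2 and 2, 1, 2, and 0.9 gave 136, 132, 109 and 74, 109, 167, then 24, 95, 77 and 14, 5, 18. No share was lower at 0.7 because of the listing, which held no such intron with a warning in the depleted library. At 0.9 the auxin table thus had more members with a lower than a higher share, the opposite of the reported order. At least 50 depleted reads gave 46, 47, 42 and 11, 15, 16, then 0, 9, 7 and 2, 1, 5. A change of 0.2 gave 31, 32, 25 and 7, 10, 16, then 2, 9, 8 and 0, 0, 1. Introns without a warning in both libraries gave 8, 11, 8 and 0, 0, 0, then 0, 1, 0 and 0, 0, 0. A share under 75% hardly occurs without a warning, so this setting left hardly any room for a fall of 10 points. A change of 0.05 moved the lower share in the auxin table to 42, higher retention to 39 and 38 (SNW1 RNAi, auxin) and lower retention to 14, 7 and 19. At least 50 control reads moved the higher share to 45 (WBP11 RNAi) and 38 (auxin), the lower share in the auxin table to 17, higher retention there to 11 and lower retention to 2, 1 and 5. At least 10 control reads moved lower retention after WBP11 RNAi to 8. Added after seeing the data, leaving out members with a minor isoform warning in control moved the higher share to 22, 26 and 20, higher retention after SNW1 RNAi to 13 and lower retention to 2, 1 and 5. Leaving out members with any warning in control, also added then, moved the higher share to 13, 17 and 14, so that the lower counts became the larger, higher retention after SNW1 RNAi to 11 and lower retention to 0, 0 and 3. Apart from the listing and from fewer or more introns entering under each setting, the cause was not tested. No depleted minimum above 1 and 1 intron per gene kept all 12 counts within 1.5 times.

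No paired analysis was possible because each group had 1 library, and leaving out a replicate was not run for the same reason. Depth limits the members: their control spliced reads had medians of 67, 72 and 61.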

Other observations

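Introns below the share threshold in the depleted library alone, which are no members, had a higher retention ratio by at least 10 points in 31 of 194 (WBP11 RNAi), 99 of 300 (SNW1 RNAi) and 126 of 536 (WBP11 auxin) cases. These were 16.0%, 33.0% and 23.5%, beside 6.45%, 13.1% and 11.8% of all assessed introns in the same tables. A low depleted share chose them, so no test is attached.

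Introns marked as overlapping a known exon, which the rule leaves out, met its share and depth limits in 10, 10 and 11 cases.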
